A study of Mus musculus with 117 samples.

Results

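Granule and granulocyte genes were followed in spinal cord libraries of 2 RiboTag mouse lines. The 10 genes were Ctsg, Elane, Mpo and Prtn3, Ngp, Camp and Ltf, Retnlg, Hdc and Chil3, of 27179 genes counted, and each had a row in the table of every library, at 0 in some. They were chosen by their measured ratio of RNA pulled down from astrocytes to RNA left over, which differed between the lines. Those ratios, and counts of genes past a threshold on them, are therefore given as a description and not as a test, and tests were kept for injury, age, sex and the relation between libraries of a mouse. The tests for injury used libraries whose values also entered that choice.

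Neutrophils kill microbes with proteins that they pack into granules while they mature in the bone marrow. Serine proteases and myeloperoxidase of the azurophil granules are transcribed at the promyelocyte stage, proteins of the specific granules follow at the myelocyte stage, and circulating neutrophils have switched most of these genes off. Healthy spinal cord holds very few granulocytes, whereas neutrophils are among the first blood cells to enter it after a crush.

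RiboTag mice carry an HA-tagged ribosomal protein, Rpl22, in cells that have expressed Cre, so that an antibody to HA pulls down the RNA these cells were translating. In Aldh1l1-CreERT-RiboTag mice, a tamoxifen-dependent Cre was driven by Aldh1l1. In mGfap-Cre-RiboTag mice, Cre was driven by the mouse Gfap promoter without a need for tamoxifen, from early life on. Both lines were on C57BL/6, and both carried the tag and a Cre in every group, so neither offers a mouse without Cre. For each mouse, the pulled-down RNA gave an astrocyte library, and the RNA left in solution, from all cells of the block, gave a flow-through library. Injured mice had a severe crush spinal cord injury (SCI) at T10, and the block reached 1 mm rostral and caudal from the centre of the lesion core, so that it held the core and some border tissue. Mice were perfused with heparinized saline before the cord was taken.

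Libraries of both kinds came from 37 Aldh1l1-CreERT-RiboTag mice, given by the paper as 3 to 4 months old. Its methods give ages at the procedure, so age at collection may go with time after SCI. They were 4 uninjured females, 5 females at 2 d after SCI, 4 females each at 5, 14, 28, 42 and 70 d, and 4 males each at 5 and 14 d. From the mGfap line there were both libraries of 5 uninjured mice at postnatal day 63 (P63; 3 labelled male, 2 female) and of 5 injured females at 14 d. For the injured mGfap mice the paper gives only the young adult age range of all its mice. For 23 younger, uninjured mGfap mice only the astrocyte library was made: 4 mice each at P0, P21 and P35, 3 each at P3 and P7, and 5 at P14. The 117 libraries held 40710428 to 136008399 counted reads. Levels are given as CPM (reads of a gene over all counted reads of the library, rescaled to a common total) after TMM scaling, in the order of the mouse numbers of a group. All 12 astrocyte markers on a list of their own, Gfap, Slc1a2 and Aldoc the highest of them, were enriched in uninjured Aldh1l1 astrocyte libraries over flow-through libraries. In astrocyte libraries, Gfap stood at 17991 CPM in uninjured Aldh1l1 mice and 25122 CPM in mGfap mice at P63 (means of 4 and 5 mice).

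The 4 azurophil genes were seen in uninjured Aldh1l1 astrocyte libraries and were at or near 0 in those of mGfap mice. Ctsg encodes cathepsin G, Elane neutrophil elastase and Prtn3 proteinase 3, all serine proteases, and Mpo encodes myeloperoxidase. Ctsg lies on the minus strand of chromosome 14 (GRCm38, 56099885 to 56102574) and Mpo on the plus strand of chromosome 11 (87793784 to 87804412), where it overlaps the predicted gene Gm34064. Prtn3 (79879667 to 79883174) and Elane (79886312 to 79888216) are neighbours on the plus strand of chromosome 10, with 3137 bases and no coding gene between them.

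The 250 bases before the annotated start of each of these 4 genes, from RefSeq on GRCm38.p6, are shown because all 4 hold the letters AGGAAGT, a sequence of the kind bound by the myeloid factor PU.1. The run is in capitals, on the gene's own strand, 5′ to 3′.
Elane (chr10:79886062-79886311, plus strand): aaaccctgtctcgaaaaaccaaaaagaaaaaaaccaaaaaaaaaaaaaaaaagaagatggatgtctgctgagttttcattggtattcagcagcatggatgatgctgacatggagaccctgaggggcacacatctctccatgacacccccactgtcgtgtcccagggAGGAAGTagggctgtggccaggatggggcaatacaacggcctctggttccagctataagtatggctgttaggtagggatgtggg
Prtn3 (chr10:79879417-79879666, plus strand): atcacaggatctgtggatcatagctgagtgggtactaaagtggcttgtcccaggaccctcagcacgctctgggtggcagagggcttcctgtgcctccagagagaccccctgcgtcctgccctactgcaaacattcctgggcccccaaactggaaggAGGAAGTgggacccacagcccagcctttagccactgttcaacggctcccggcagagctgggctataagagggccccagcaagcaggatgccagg
Mpo (chr11:87793534-87793783, plus strand): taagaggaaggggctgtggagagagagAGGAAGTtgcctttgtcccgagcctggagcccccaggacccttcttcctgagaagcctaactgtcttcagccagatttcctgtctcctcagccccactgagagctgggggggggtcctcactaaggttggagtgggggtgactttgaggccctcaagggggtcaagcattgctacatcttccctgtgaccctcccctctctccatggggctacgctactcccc
Ctsg (chr14:56102575-56102824, minus strand): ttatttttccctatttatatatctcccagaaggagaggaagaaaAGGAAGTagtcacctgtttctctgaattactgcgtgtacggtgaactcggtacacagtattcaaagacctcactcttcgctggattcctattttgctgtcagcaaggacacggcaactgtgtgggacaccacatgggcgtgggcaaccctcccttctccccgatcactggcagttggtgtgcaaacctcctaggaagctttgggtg

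Its first base lay at -84 from the start in Elane, -94 in Prtn3, -223 in Mpo and -206 in Ctsg. Of the other 6 genes, Chil3 held it, on the opposite strand at -60, and over 32851 RefSeq promoters of this length 7.69% held it on either strand. A C/EBP pattern, TTNCNNAA, was found in 36.8% of promoters and in Ngp, Ltf, Retnlg and Chil3, and a MYB pattern, AACNG, in 74.2% of promoters and in all 10 genes. No run of AGGAAGT shared a base with a match to the other patterns in these 10 promoters. The motifs were chosen with the sequences in view, and a match is a description of letters, not of a bound site.

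Elane in uninjured Aldh1l1 mice stood at 6.51, 1.88, 0.936 and 3.21 CPM in astrocyte libraries and at 0.800, 0.0830, 0.376 and 0.171 CPM in the flow-through libraries of the same mice. In mGfap mice at P63 it stood at 0, 0, 0, 0.0744 and 0 CPM in astrocyte libraries and at 0.378, 0.272, 0.117, 0.584 and 0.120 CPM in flow-through libraries. All 4 Aldh1l1 mice had more of it in the astrocyte library, and all 5 mGfap mice had more of it in the flow-through library. Ctsg stood at 2.37, 1.20, 0.468 and 1.40 CPM in Aldh1l1 astrocyte libraries and at 0.285, 0.152, 0.0490 and 0.147 CPM in their flow-through libraries. None of its reads was counted in the 5 mGfap astrocyte libraries, while the flow-through libraries held 0.111, 0.175, 0.0195, 0.255 and 0.120 CPM. Against the level that 3 counts in each library would give, Ctsg was at least 31.2-fold higher in Aldh1l1 than in mGfap astrocyte libraries.

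Mpo stood at 12.2, 5.61, 3.28 and 4.23 CPM in Aldh1l1 astrocyte libraries and at 1.47, 0.775, 0.588 and 0.448 CPM in flow-through libraries. In mGfap mice it was at 0.0621, 0.118, 0, 0.496 and 0.0789 CPM in astrocyte libraries and at 0.922, 1.16, 0.682, 1.73 and 0.407 CPM in flow-through libraries. The ranges of the lines did not overlap in astrocyte libraries and did overlap in flow-through libraries. Prtn3 was the member with the weakest enrichment in the Aldh1l1 line, at 4.66, 2.13, 1.59 and 2.38 CPM in astrocyte libraries against 2.53, 1.25, 1.36 and 1.51 CPM in flow-through libraries. In mGfap mice, it was at 0.543, 0.412, 0, 0.260 and 0 CPM in astrocyte libraries and at 1.30, 1.31, 1.60, 1.92 and 0.666 CPM in flow-through libraries. Astrocyte libraries of mGfap mouse 3 and mouse 5 held no read of it.

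Genes of the specific granules were more abundant and split the lines in the same direction. Ngp (chromosome 9, 110419808 to 110423012, plus strand) encodes a cystatin-like granule protein. It stood at 114, 53.5, 31.3 and 38.5 CPM in uninjured Aldh1l1 astrocyte libraries and at 19.5, 7.63, 4.54 and 7.46 CPM in flow-through libraries. In mGfap mice at P63 it stood at 1.65, 0.764, 1.28, 1.87 and 0.158 CPM in astrocyte libraries and at 7.07, 6.38, 6.20, 9.53 and 3.56 CPM in flow-through libraries. The flow-through ranges of the lines overlapped, and the astrocyte ranges were far apart. Camp (chromosome 9, 109847377 to 109849456, minus strand), the cathelicidin antimicrobial peptide, was at 33.96, 13.4, 7.26 and 13.7 CPM in Aldh1l1 astrocyte libraries and at 5.74, 2.07, 1.23 and 2.32 CPM in flow-through libraries. The mGfap mice held 0.155, 0.235, 1.15, 0.992 and 0.126 CPM of Camp in astrocyte libraries and 4.16, 2.98, 2.16, 2.96 and 1.21 CPM in flow-through libraries. Ltf (chromosome 9, 111019292 to 111042766, plus strand), the iron-binding protein lactoferrin, was at 32.8, 15.9, 11.1 and 12.3 CPM in Aldh1l1 astrocyte libraries and at 2.36, 1.16, 0.719 and 1.45 CPM in flow-through libraries. For mGfap mice these were 0.217, 0.323, 0, 0.459 and 0.284 CPM in astrocyte libraries and 1.77, 1.07, 0.847, 5.89 and 0.953 CPM in flow-through libraries, with mouse 4 the highest of the 5 in both. Ltf had the highest mean ratio in the uninjured Aldh1l1 line, 3.63 ± 0.38 on the log2 scale (SD, n = 4). Ngp lies 570 kb from Camp, with 8 coding genes between them, and 596 kb from Ltf, with 20 coding genes between them.

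Retnlg and Chil3 encode secreted proteins made by granulocytes, and Chil3, also known as Ym1, is made by macrophages as well. Retnlg (chromosome 16, 48872608 to 48874498, plus strand) stood at 12.2, 4.12, 2.37 and 4.60 CPM in uninjured Aldh1l1 astrocyte libraries and at 2.75, 1.09, 0.163 and 0.806 CPM in flow-through libraries. The mGfap mice at P63 held Retnlg at 0, 0.118, 0.171, 0.198 and 0.205 CPM and 1.17, 0.768, 0.760, 1.48 and 0.278 CPM. Every Aldh1l1 mouse had more Retnlg in the astrocyte library and every mGfap mouse had less. Chil3 (chromosome 3, 106147554 to 106167564, minus strand) stood at 16.4, 8.35, 4.62 and 6.96 CPM in Aldh1l1 astrocyte libraries and at 1.78, 0.595, 0.580 and 0.838 CPM in flow-through libraries. In mGfap mice it stood at 0.0310, 0.118, 0, 0.223 and 0.331 CPM and 1.21, 1.04, 0.954, 1.40 and 0.851 CPM. Retnlg and Chil3 have close relatives, Retnla and Chil4, and reads that fit both genes of such a pair may not have been counted.

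Hdc (chromosome 2, 126593659 to 126624025, minus strand), the enzyme that makes histamine and is known from mast cells and basophils, did not follow the other 9 genes. It stood at 17.1, 14.05, 16.2 and 18.1 CPM in uninjured Aldh1l1 astrocyte libraries and at 2.49, 2.42, 2.47 and 2.62 CPM in flow-through libraries. In mGfap mice at P63 it stood at 9.42, 14.9, 13.1, 15.1 and 11.5 CPM in astrocyte libraries and at 1.24, 1.42, 2.04, 1.73 and 1.45 CPM in flow-through libraries. Hdc was thus higher in the astrocyte library of every uninjured mouse of both lines, and its levels in astrocyte libraries overlapped between the lines. Per kilobase of exon, mean levels in uninjured Aldh1l1 astrocyte libraries were 51.0 CPM per kb for Ngp, 28.5 for Camp, 9.57 for Retnlg, 6.57 for Ltf, 6.18 for Hdc, 5.89 for Chil3, 3.41 for Elane, 2.76 for Prtn3, 2.49 for Mpo and 1.36 for Ctsg. Between mice, all neighbours in this order overlapped.

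**Figure D1:**
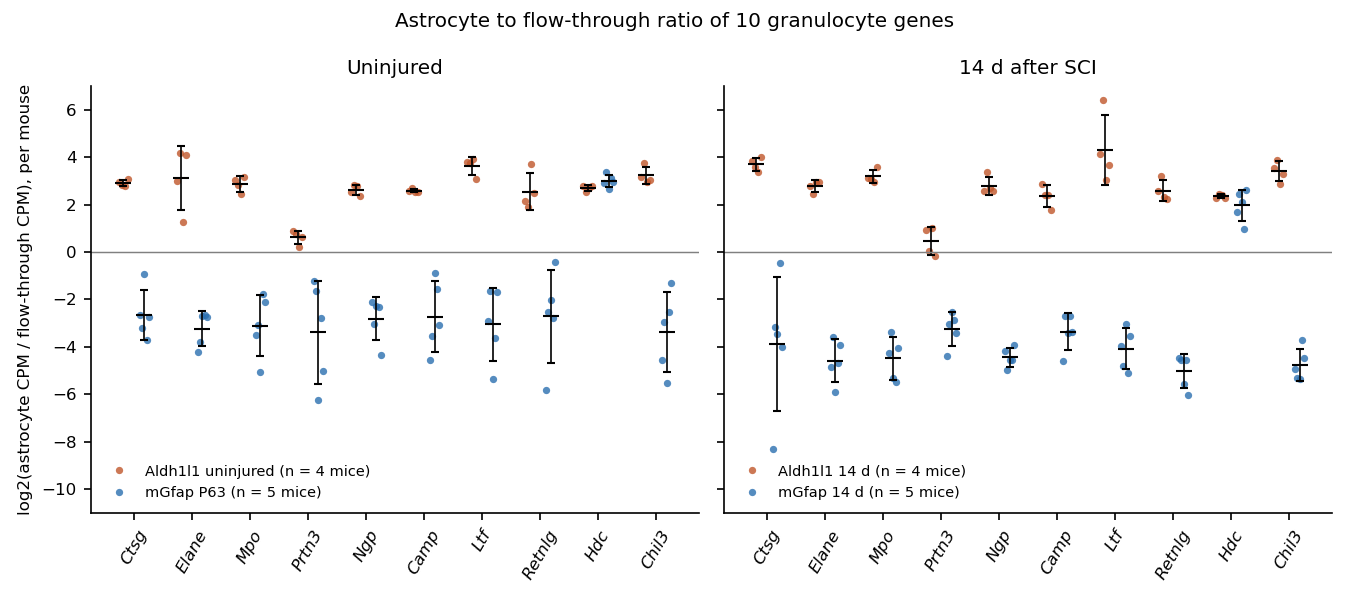
Astrocyte CPM over flow-through CPM, as a log2 ratio, for each of the 10 genes (x axis) and each mouse (points), with means and SD, in uninjured mice (left panel) and at 14 d after SCI (right panel) of the Aldh1l1 and mGfap lines. For 9 of the 10 genes the lines do not overlap in either panel, with Aldh1l1 mice above mGfap mice, and for Hdc they do.

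As log2 ratios of the 2 libraries of a mouse, with a prior count of 2 added, uninjured Aldh1l1 means ran from 0.62 ± 0.28 for Prtn3 to 3.63 ± 0.38 for Ltf (SD, n = 4). Those of mGfap mice at P63 ran from -3.38 ± 2.18 for Prtn3 to -2.65 ± 1.04 for Ctsg over the 9 genes other than Hdc (SD, n = 5), and Hdc was at 3.00 ± 0.26. The median line difference over the 10 genes, mGfap minus Aldh1l1, was -5.50, against -0.04 over 20470 genes with at least 1 read per library on average. Without Ctsg, which had no reads in mGfap astrocyte libraries, it was -5.43. In 9 of the 10 genes all mGfap mice lay below all Aldh1l1 mice, which held for 11.4% of the 20470 genes. Counted by a threshold of 2-fold and FDR <0.01 in edgeR, as a description of what chose them, 8 of the 10 genes were higher in uninjured Aldh1l1 astrocyte libraries (18.9% of genes tested) and none was at least 2-fold lower (22.2%). In mGfap mice at P63, Hdc was at least 2-fold higher (17.8% of genes tested) and 7 of the 9 genes tested were at least 2-fold lower (23.1%). These ratios chose the genes, and nothing was read from the counts.

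The separation lay in the astrocyte libraries of uninjured mice. Mean levels in uninjured Aldh1l1 astrocyte libraries were 11.1-fold (Prtn3) to 211-fold (Elane, with 6 reads in all in the mGfap libraries) those of mGfap mice, leaving out Ctsg and Hdc, and 1.28-fold for Hdc. In flow-through libraries of the same mice, the folds for the 10 genes lay between 0.676 (Ltf) and 1.58 (Hdc).

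At 14 d after SCI, the mean ratios of the lines were farther apart than in uninjured mice for 8 of the 9 genes other than Hdc. Prtn3 was the exception, with a line difference of -3.71 against -4.01 on the log2 scale. Whether the distance changed was not tested. Elane stood at 2.39, 1.02, 2.54 and 1.44 CPM in Aldh1l1 astrocyte libraries of females and at 0.332, 0.171, 0.312 and 0.167 CPM in flow-through libraries. In mGfap mice it was at 0.947, 0.0717, 0, 0.0599 and 0.0698 CPM in astrocyte libraries and at 28.1, 1.08, 1.24, 2.06 and 1.34 CPM in flow-through libraries. Mouse 1 of the mGfap group stood far above the other 4 in both kinds of library, and even so its Elane ratio was on the side of the flow-through. Ngp was at 40.5, 23.6, 40.6 and 22.2 CPM in Aldh1l1 astrocyte libraries and at 6.83, 2.27, 6.22 and 3.73 CPM in flow-through libraries. The mGfap mice held 8.28, 0.368, 0.774, 1.22 and 0.960 CPM of Ngp in astrocyte libraries and 151, 12.03, 18.8, 29.1 and 15.02 CPM in flow-through libraries. Hdc was at 15.8, 17.9, 15.2 and 16.8 CPM in Aldh1l1 and 21.8, 12.3, 11.7, 9.77 and 13.1 CPM in mGfap astrocyte libraries, so that the ranges again overlapped.

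The median line difference at 14 d was -7.47 over the 10 genes and -0.06 over 20470 genes, and it ranged from -7.67 to -7.30 when each mouse was left out in turn. Again 9 of the 10 genes had all mGfap mice below all Aldh1l1 mice, as had 14.7% of genes. Mean log2 ratios were 2.78 ± 0.25 and -4.58 ± 0.91 for Elane, 2.80 ± 0.38 and -4.44 ± 0.39 for Ngp, 2.59 ± 0.44 and -5.03 ± 0.71 for Retnlg, and 2.35 ± 0.08 and 1.97 ± 0.67 for Hdc (Aldh1l1, SD, n = 4, then mGfap, SD, n = 5). At this time the flow-through libraries also differed, with mean levels in mGfap mice 5.55-fold (Prtn3) to 44.4-fold (Ctsg) those of Aldh1l1 mice, apart from Hdc (1.18-fold). Without mGfap mouse 1 these were 2.07-fold (Prtn3) to 8.67-fold (Mpo), with 7.92-fold for Ctsg and 0.939-fold for Hdc. In Aldh1l1 mice, 9 of the 10 genes were at least 2-fold higher in astrocyte libraries (15.4% of genes tested) and 0 lower (18.9%). In mGfap mice, Hdc was at least 2-fold higher (15.6%) and 5 of 10 were at least 2-fold lower (18.7%), which became 8 with the mouse as a block.

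Across all 37 Aldh1l1 mice, uninjured or injured, the 333 ratios of the 9 genes other than Hdc were above 0 in all but 14 cases, and 290 were at least 2-fold. In the 10 mGfap mice, 90 of 90 were below 0 and 86 were at least 2-fold lower. Hdc was above 0 in 37 of 37 Aldh1l1 and in 10 of 10 mGfap mice. By mouse, the log2 ratio of Ngp ran from 1.58 to 3.89 with a median of 2.38 in the Aldh1l1 line and from -4.95 to -2.09 in the mGfap line. Prtn3 ran from -0.67 to 1.93 in the Aldh1l1 line, above 0 in 29 of 37 mice, and held 8 of the 14 values below 0. Camp went lowest in that line, to -2.35, in mouse 2 at 2 d. By the same descriptive threshold, 3 genes were higher in astrocyte libraries at 2 d (19.7% of genes tested, 21.4% lower) and 6 at 5 d (16%) in females. Among females at later times, 28 d mice had 9 such genes (17.8%), 42 d mice 8 (13.1%) and 70 d mice 9 (13.7%). In males there were 8 at 5 d (13.6%) and 9 at 14 d (11.9%). The rule that chose the genes used these ratios too. With the mouse as a block these became 9 at 5 d and 10 each at 42 and 70 d in females and 9 at 5 d in males.

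In Aldh1l1 astrocyte libraries, no granule gene was called higher up to 42 d after SCI, whereas Chil3 was at 2 and 5 d. Over 6 times after SCI and 10 genes, edgeR called 4 values higher than in uninjured mice and 2 lower (FDR <0.01), and DESeq2 called 4 and 3. Uninjured and injured astrocyte values both helped to choose the genes. High uninjured values favour a fall after SCI and high injured values a rise, so that calls in neither direction are free of the choice.

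Chil3 stood at 574, 125, 121, 290.3 and 257.5 CPM in astrocyte libraries at 2 d, 114, 112, 90.4 and 91.5 CPM at 5 d and 5.94, 8.28, 7.77 and 9.10 CPM at 14 d, against 4.62 to 16.4 CPM in uninjured mice. Every mouse at 2 and 5 d was above every uninjured mouse, and by 14 d the ranges overlapped. The increase was past the threshold at 2 d (log2 fold change 4.92, SE 0.48, FDR = 1.72e-09, where 30.2% of genes were higher) and at 5 d (3.47, SE 0.45, FDR = 3.01e-07, where 28.7% were higher). On a list of 12 monocyte and macrophage markers, all 12 were higher at 2 d and at 5 d in these libraries, and their part in the result was not tested. In these bulk libraries, fewer cells of a type and less RNA per cell cannot be told apart.

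Hdc was at 9.94, 5.49, 4.71, 9.19 and 16.3 CPM at 2 d, with 4 of 5 mice below all 4 uninjured mice, and fell (-0.84, SE 0.27, FDR = 0.00777, with 29.9% of genes lower). At 70 d it was at 41.4, 46.5, 32.4 and 37.7 CPM, above every uninjured mouse (1.28, SE 0.29, FDR = 0.000500, with 23.9% of genes higher). Mouse age at collection may go with time after SCI, and its part was not tested. Among 12 mast cell and basophil markers tested in these libraries, 7 were higher and 0 lower at 70 d (median log2 fold change 4.08), and their part in the result was not tested. Ltf at 5 d was at 2.82, 5.33, 1.89 and 11.8 CPM, with mouse 4 inside the uninjured range, and was lower (-1.74, SE 0.54, FDR = 0.00690, with 28.1% of genes lower). Mpo (-1.69, SE 0.56, FDR = 0.0101) and Ngp (-1.56, SE 0.54, FDR = 0.0145) missed the threshold at 5 d. Without 5 d mouse 4, the count of lower values became 6, and without uninjured mouse 1, which had the highest level of 9 of the genes, it became 0. The fall of Hdc at 2 d was below the threshold after leaving out any of uninjured mice 1, 3 and 4 or 2 d mice 1 to 4 (log2 fold change -0.87 to -0.68). That of Ltf was below it without uninjured mouse 1 or 5 d mice 1, 2 or 3 (-1.73 to -1.29).

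Prtn3 was the other gene that rose at 70 d, to 4.43, 9.505, 14.04 and 3.71 CPM (1.57, SE 0.48, FDR = 0.00710), with mice 2 and 3 above and mice 1 and 4 inside the uninjured range. This call was lost without 70 d mouse 2 or 3 or uninjured mouse 2, 3 or 4 (log2 fold change 1.13 to 1.51). At an unadjusted p under 0.05, 5 genes were higher at 70 d. At FDR <0.01, a stricter limit, 23.9% of genes were called higher there and 21.5% lower. At 14, 28 and 42 d no member passed FDR <0.01 in either direction (24.5%, 22.8% and 23.3% of genes higher, 22.8%, 19.1% and 20% lower), and 1, 0 and 1 of the 10 had an unadjusted p under 0.05. The median log2 fold change of the 10 genes was -0.92, -1.13 and -0.80 at 2, 5 and 14 d, against -0.04, -0.02 and -0.02 over all genes tested. For 28, 42 and 70 d it was -0.25, 0.60 and 1.11, against 0.01, 0.03 and 0.05.

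Other lists were counted in the same libraries. Of 29 markers of mature neutrophils, 24 could be tested, and 19 were higher and 0 lower at 2 d (median log2 fold change 5.06), 14 higher and 1 lower at 5 d, and 13 higher and 1 lower at 14 d, where 30.2%, 28.7% and 24.5% of all genes were higher. Of 15 granulocyte progenitor markers, 5 were higher and 0 lower at 2 d, a share near that of all genes, and of 19 other granule genes 12 were higher and 0 lower. Of 11 erythroid markers tested at 2 d, 4 were lower and 1 higher, with a median of -1.45, and the share lower was near the 29.9% of all genes. Whether the lists differ from one another was not tested.

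**Figure D2:**
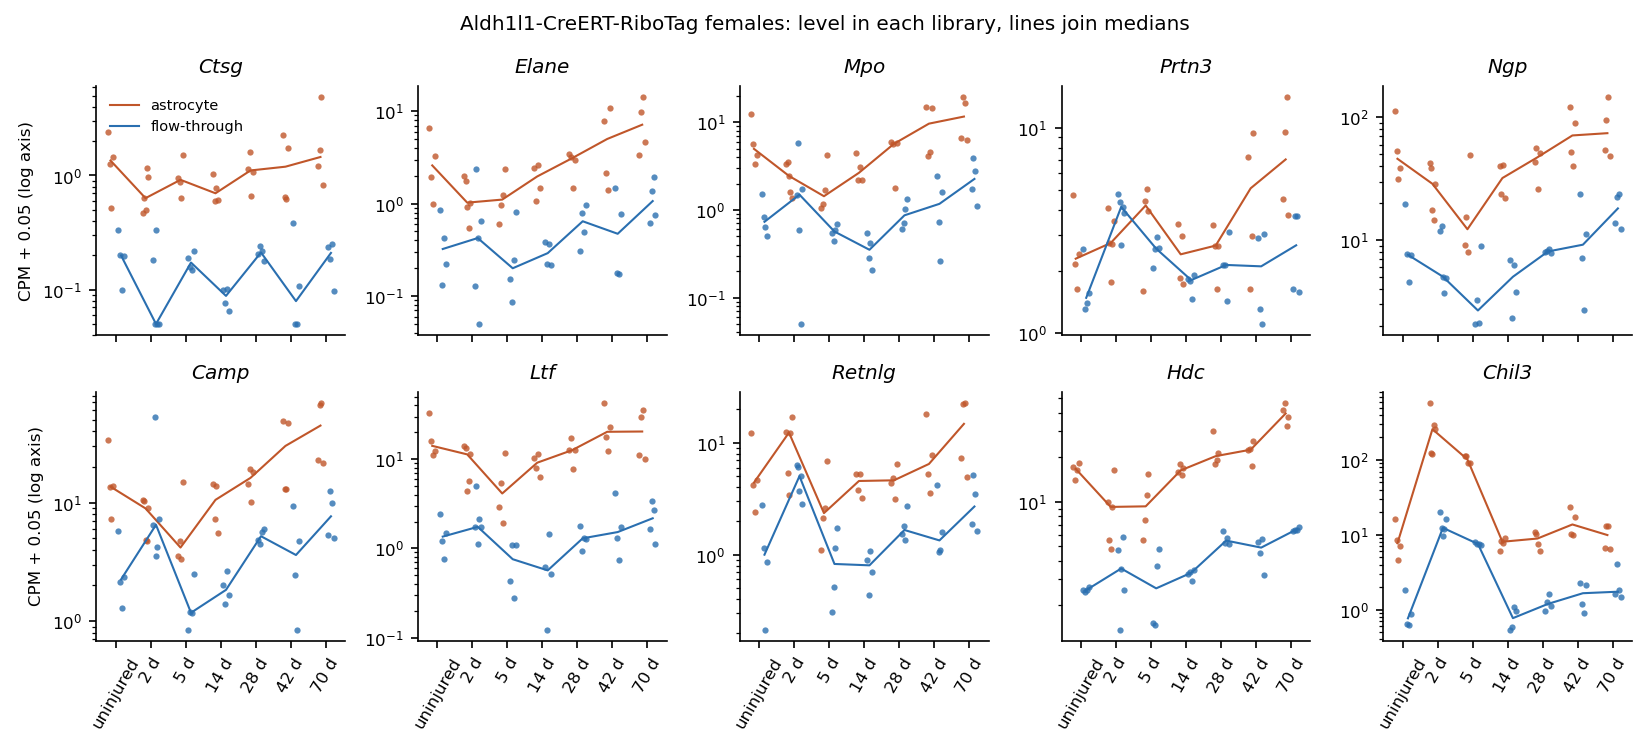
CPM plus 0.05 (log axis) of each of the 10 genes in uninjured female Aldh1l1-CreERT-RiboTag mice and at 2 to 70 d after SCI. Points are mice, in astrocyte and flow-through libraries, and lines join the medians. Chil3 rises to 121 to 574 CPM in astrocyte libraries at 2 d, and medians of all 10 genes are higher in astrocyte libraries at every time, but for Prtn3 at 2 d.

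In Aldh1l1 flow-through libraries, 8 values of 60 were higher than in uninjured mice and none was lower (1 lower at an unadjusted p under 0.05, at 5 d), with 8 and 0 by DESeq2. Uninjured and injured flow-through values also helped to choose the genes. Low uninjured values favour a rise after SCI and low injured values a fall, so that these calls are not free of the choice. At 2 d, 4 genes rose (32.6% of genes tested were higher, 32.9% lower). Chil3 stood at 19.96, 12.3, 9.51, 12.1 and 16.4 CPM (3.92, SE 0.40, FDR = 8.48e-10), Prtn3 at 4.69, 4.29, 2.64, 4.07 and 3.79 CPM (1.26, SE 0.33, FDR = 0.00136) and Retnlg at 6.25, 6.01, 3.63, 4.99 and 2.80 CPM (2.01, SE 0.60, FDR = 0.00377). All 5 mice were above all uninjured mice in each of these. Camp stood at 6.45, 53.0, 3.502, 4.14 and 7.16 CPM (2.43, SE 0.70, FDR = 0.00278), and mouse 2 held most of the difference: without it the log2 fold change was 0.94 and the call was lost, as it was without uninjured mouse 2, 3 or 4 (2.18 to 2.34). The call for Retnlg was lost without uninjured mouse 2, 3 or 4 as well (1.64 to 1.95). Uninjured mouse 3 had the lowest Retnlg level, 0.163 CPM.

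Later, Chil3 was higher at 5 d, at 8.05, 7.48, 7.52 and 7.26 CPM (3.07, SE 0.39, FDR = 1.01e-07, with 27.7% of genes higher and 21.8% lower). Hdc was higher at 28 d, at 6.33, 5.23, 5.61 and 5.13 CPM (1.15, SE 0.33, FDR = 0.00401, 26.4% higher and 22.6% lower), and at 70 d, at 6.27, 6.43, 6.45 and 6.72 CPM (1.39, SE 0.33, FDR = 0.000979, 21.8% higher and 15.7% lower). In all of these the injured mice were above the uninjured ones. Chil3 at 70 d, at 1.59, 4.08, 1.79 and 1.44 CPM (1.25, SE 0.37, FDR = 0.00663), rested on mouse 2, without which the log2 fold change was 0.74 and the call was lost. It was also lost without uninjured mouse 2, 3 or 4 (1.05 to 1.19), and that of Hdc at 28 d without uninjured mouse 1, 2 or 3 or 28 d mouse 1 (1.08 to 1.15). No member passed at 14 d (24.6% higher, 19.5% lower) or 42 d (25.3% and 19.2%), where 0 and 1 of the 10 had an unadjusted p under 0.05. Hdc was the only member past the threshold at 70 d in both kinds of library. The part of mouse age in this was not tested.

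In mGfap flow-through libraries, 9 of the 10 genes were higher at 14 d after SCI than at P63, Ltf being the exception, and mouse 1 carried much of the size. The flow-through values at 14 d were part of the ratios that chose the genes, so that a rise there is favoured by the choice. With the labelled sex as a covariate, the calls of Chil3 and Hdc were kept and the other 7 were lost. In the fit without it, 33.6% of genes tested were higher and 32.4% lower, and the median log2 fold change of the 10 genes was 3.24 against 0.01 over all genes. Elane showed the largest of these (4.55, SE 0.97, FDR = 0.000372), from 0.117 to 0.584 CPM at P63 to the values given above. Mpo stood at 38.95, 1.51, 2.20, 4.53 and 2.60 CPM at 14 d (3.37, SE 0.79, FDR = 0.000940) and Camp at 133, 5.14, 4.98, 12.6 and 5.85 CPM (3.62, SE 0.85, FDR = 0.000888). Mice 2 to 5 were also above the P63 range for Camp, while mouse 2 was inside it for Mpo. Chil3 stood at 26.9, 2.99, 5.13, 8.16 and 3.96 CPM (3.13, SE 0.53, FDR = 3.86e-05) and Hdc at 6.83, 2.22, 2.68, 4.99 and 2.11 CPM (1.26, SE 0.27, FDR = 0.000356), all 5 mice being above P63 in each. The other 4 with a call were Ctsg (3.54, SE 0.97, FDR = 0.00304), Prtn3 (2.82, SE 0.62, FDR = 0.000502), Ngp (2.81, SE 0.64, FDR = 0.000694) and Retnlg (3.35, SE 0.79, FDR = 0.000965). Ltf, at 30.8, 2.56, 3.55, 8.30 and 3.68 CPM, missed the threshold (2.23, SE 0.77, FDR = 0.0140).

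Mouse 1 of the 14 d group held 24.02-fold the mean of the other 4 mice for Ctsg, 19.7-fold for Elane, 18.7-fold for Camp and 2.28-fold for Hdc in its flow-through library. Its summed level of the 10 genes was 487 CPM there, against 31.97 to 82.6 CPM in the others. Without its library, 8 of the 9 calls stayed and that of Ctsg was lost (log2 fold change 1.03). The fold changes of the others were then 2.28 for Elane, 2.21 for Chil3, 1.95 for Retnlg, 1.51 for Ngp, 1.46 for Mpo, 1.40 for Camp, 1.37 for Prtn3 and 0.92 for Hdc. In the same library, 11 erythroid markers summed to 942 CPM against 189 to 287 CPM in the other 4 mice, 12 B cell precursor markers to 33.3 against 13.3 to 16.8 CPM, and 8 megakaryocyte and platelet markers to 106 against 29.96 to 53.5 CPM. The 12 monocyte and macrophage markers, at 3588 CPM, were inside the range of the others (3167 to 8875 CPM), as were the 8 microglia markers (1515 CPM in 1184 to 1876 CPM) and the 15 granulocyte progenitor markers (322.6 CPM in 306 to 560 CPM). The 9 bone and marrow stroma markers were below it, at 1744 CPM against 2920 to 4806 CPM. Mature neutrophil markers, at 979 against 279 to 838 CPM, eosinophil markers, at 9.63 against 3.84 to 4.90 CPM, and proliferation markers, at 86.1 against 31.5 to 61.7 CPM, were above it. Gene by gene, 4 of the 9 bone and marrow stroma and 6 of the 15 progenitor markers were above all 4 other mice. Of the monocyte and macrophage markers 2 were, and of the microglia markers 0. The part of these cells in the result was not tested.

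All 14 d mice were labelled female and 3 of the 5 P63 mice male. With the labelled sex as a covariate, 2 of the 9 calls stayed, those of Chil3 and Hdc, while the log2 fold changes were 4.28 for Elane, 3.98 for Camp, 3.24 for Mpo and 3.08 for Ctsg. In mGfap flow-through libraries at 14 d, 18 of 22 mature neutrophil markers tested, 11 of 15 granulocyte progenitor markers, 8 of 11 erythroid markers and 11 of 12 monocyte and macrophage markers were also higher, and 0, 1, 1 and 0 were lower, where 33.6% and 32.4% of all genes were.

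Astrocyte libraries of the same mGfap mice showed no member past the threshold (0 of 10 higher, with 27.7% of genes higher, and 0 lower, with 16.4% lower), though 3 had an unadjusted p under 0.05 and DESeq2 called 1 higher. Elane came nearest (3.74, SE 1.26, FDR = 0.0169), and Ngp was at 8.28, 0.368, 0.774, 1.22 and 0.960 CPM against 1.65, 0.764, 1.28, 1.87 and 0.158 CPM at P63 (1.09, SE 0.71, FDR = 0.206). Mouse 1 again was the highest, in 9 of the 10 genes, and the other 4 overlapped with P63 for Ngp. Ctsg was counted in mouse 4 alone, at 0.299 CPM, and not in mouse 1, whose flow-through held 6.75 CPM. Hdc did not pass (0.19, SE 0.17, FDR = 0.372).

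**Figure D3:**
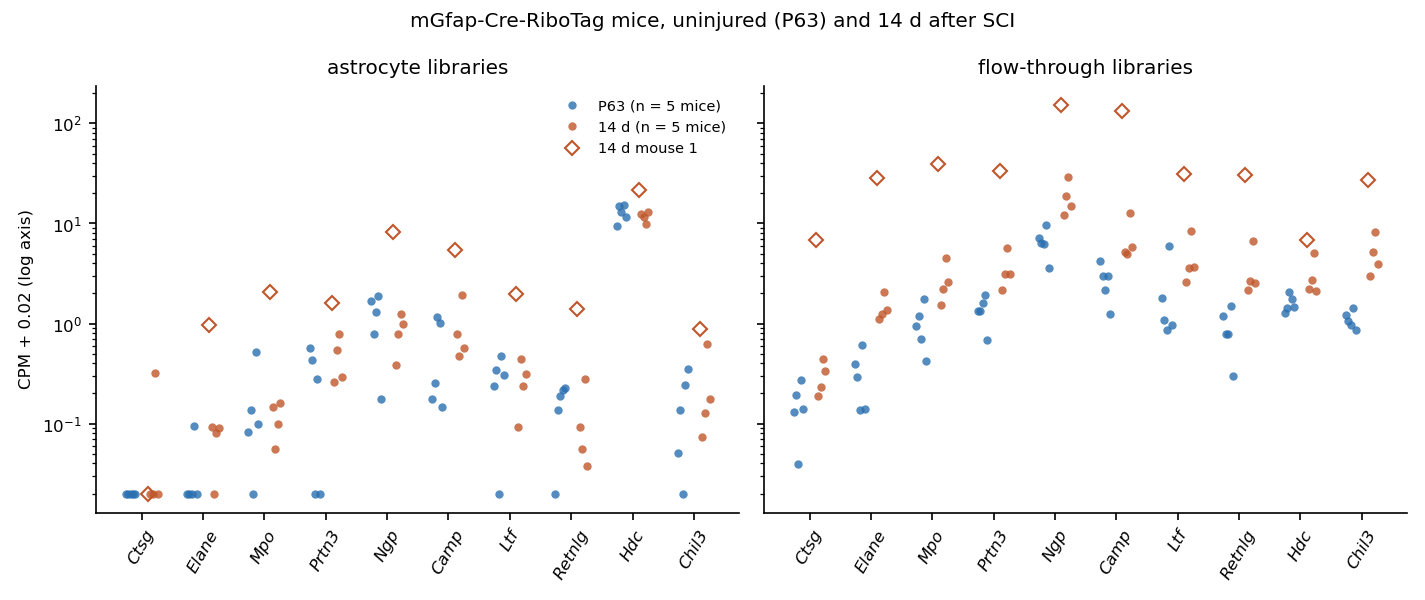
CPM plus 0.02 (log axis) of the 10 genes in mGfap-Cre-RiboTag mice, uninjured at P63 and at 14 d after SCI, in astrocyte libraries (left) and flow-through libraries (right). Points are mice, and the open diamond is 14 d mouse 1, which is the highest of the 5 injured mice for all 10 genes in the flow-through and for 9 in the astrocyte libraries.

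In uninjured mGfap astrocyte libraries, Hdc was the gene that changed with age. Its level was 2.46, 0.784, 0.0702 and 1.63 CPM at P0, 0.679, 3.48 and 1.24 CPM at P3 and 2.58, 1.54 and 2.87 CPM at P7, below every mouse at P63. At P14 it was at 9.49, 5.03, 3.78, 6.73 and 6.76 CPM, at P21 at 6.62, 5.63, 7.69 and 6.48 CPM and at P35 at 6.71, 9.55, 8.34 and 7.09 CPM, which overlapped with the P63 range of 9.42 to 15.1 CPM at P14 and P35 and lay below it at P21. Against P63, Hdc was lower at P0 (-3.34, SE 0.55, FDR = 7.98e-06, where 25.1% of genes were lower), P3 (-2.82, SE 0.60, FDR = 0.000298, 19.2%) and P7 (-2.45, SE 0.59, FDR = 0.00156, 13%). The call at P7 was lost without P7 mouse 2 (log2 fold change -2.24). At P14, P21 and P35 it did not pass (-1.0, SE 0.46, FDR = 0.0935 at P14, with 12.2% of genes lower). At P21 and P35, 3.80% and 0.604% of genes were lower.

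The other genes stayed low at all ages. Over the 23 libraries from P0 to P35, the highest level was 2.49 CPM for Ngp, 1.01 CPM for Camp, 0.632 CPM for Retnlg, 0.572 CPM for Mpo, 0.522 CPM for Ltf, 0.497 CPM for Prtn3, 0.302 CPM for Chil3, 0.218 CPM for Elane and 0.0825 CPM for Ctsg. Ctsg was at 0 in 21 of them and Elane in 18, and neither had enough reads for the test. None of the 7 others tested was called at any age in either direction (at most 2 of them per age had an unadjusted p under 0.05), and 25.1%, 20.7%, 14.6%, 14.1%, 5.42% and 1.80% of genes were higher at P0, P3, P7, P14, P21 and P35 than at P63.

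**Figure D4:**
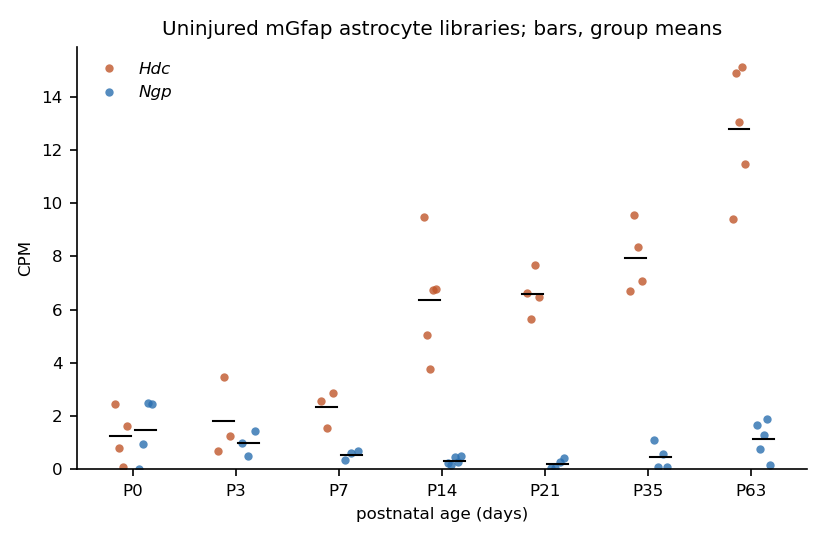
CPM of Hdc and Ngp in astrocyte libraries of uninjured mGfap-Cre-RiboTag mice from P0 to P63. Points are mice and bars are means. Hdc climbs from 0.0702 to 2.46 CPM at P0 to 9.42 to 15.1 CPM at P63, and Ngp stays at or below 2.49 CPM.

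Between male and female Aldh1l1 mice at 5 and 14 d, with the time as a covariate, no member was called in astrocyte libraries (0.0227% of genes higher in males, 0.0283% lower) or in flow-through libraries (0.241% and 0.0267%), and DESeq2 called none either. In astrocyte libraries 3 members, Mpo, Camp and Ltf, were higher in males at an unadjusted p under 0.05, and in flow-through libraries 5 were, these 3 with Ngp and Retnlg. Mpo was at 4.99, 6.42, 2.14 and 2.66 CPM in males and 0.989, 1.12, 1.64 and 4.23 CPM in females at 5 d (1.02, SE 0.37, FDR = 0.9999 over both times). Its levels at 14 d were 3.53, 3.11, 3.13 and 13.6 CPM in males and 4.37, 2.12, 3.03 and 2.17 CPM in females. At 14 d only male mouse 4 was above all females, and at 5 d female mouse 4 was inside the male range. In flow-through libraries, the difference in Mpo was 1.06, SE 0.35, FDR = 0.0655 and that in Camp 0.87, SE 0.28, FDR = 0.0590. The interaction of sex and time gave no call for a member (0% of genes in either library and direction), with 1 member in astrocyte libraries and 0 in flow-through libraries at an unadjusted p under 0.05. The flow-through library of 5 d female mouse 4 was labelled male while its title and its astrocyte library were not, and was kept with the females.

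In the Aldh1l1 line, mice with more of a gene in the astrocyte library tended to have more of it in the flow-through library. For 8 of the 10 genes this passed after adjustment (adjusted p under 0.05), and for Ctsg and Hdc it did not. Other genes were not put to this test, so whether 8 of 10 is more than most genes would give is not known. To ask this apart from injury and line, each level was taken on the log2 scale as its distance from the mean of its group. Over 37 Aldh1l1 mice, the libraries went together most closely for Ngp (r = 0.88, adjusted permutation p = 6.7e-05 and rho = 0.88, adjusted p = 6.7e-05), followed by Prtn3 (r = 0.80, adjusted permutation p = 0.0001 and rho = 0.82, adjusted p = 6.7e-05), Retnlg (r = 0.79, adjusted permutation p = 0.0001 and rho = 0.76, adjusted p = 0.00012) and Camp (r = 0.75, adjusted permutation p = 6.7e-05 and rho = 0.82, adjusted p = 6.7e-05). Adjustment was over 40 correlations, p-values were two-sided from 100000 permutations within groups, and 1e-05 was the smallest unadjusted p they could give. Leaving out the pair of mice farthest from the median, r was 0.86 for Ngp, 0.81 for Prtn3, 0.73 for Retnlg and 0.73 for Camp.

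Chil3, Ltf, Elane and Mpo had r between 0.52 (Mpo, adjusted permutation p = 0.00062, rho = 0.64, adjusted p = 0.00069) and 0.71 (Chil3, adjusted permutation p = 0.00018, rho = 0.68, adjusted p = 0.00062). For Hdc (r = 0.52, adjusted permutation p = 0.082 and rho = 0.35, adjusted p = 0.14) and Ctsg (r = 0.40, adjusted permutation p = 0.075 and rho = 0.42, adjusted p = 0.065) the correlation did not pass after adjustment. Without the 2 farthest mice, r was 0.73 for Hdc, where 2 d mice 3 and 5 were left out, and 0.28 for Ctsg. In the 10 mGfap mice, by exact permutation within groups, Ngp again went together (r = 0.91, adjusted exact permutation p = 0.0014 and rho = 0.90, adjusted p = 0.0025), and r was 0.77 without the 2 farthest mice. That of Elane (r = 0.86, adjusted exact permutation p = 0.04 and rho = 0.48, adjusted p = 0.2) fell to 0.09 without 14 d mouse 1 and P63 mouse 4, and so rested on them. The other genes of the mGfap line did not pass by r (adjusted exact permutation p = 0.052 or above), and Ltf passed by rho alone (r = 0.69, adjusted exact permutation p = 0.066 and rho = 0.76, adjusted p = 0.033). The 2 libraries of a mouse, as paired by its number, share the animal and its dissection.

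**Figure D5:**
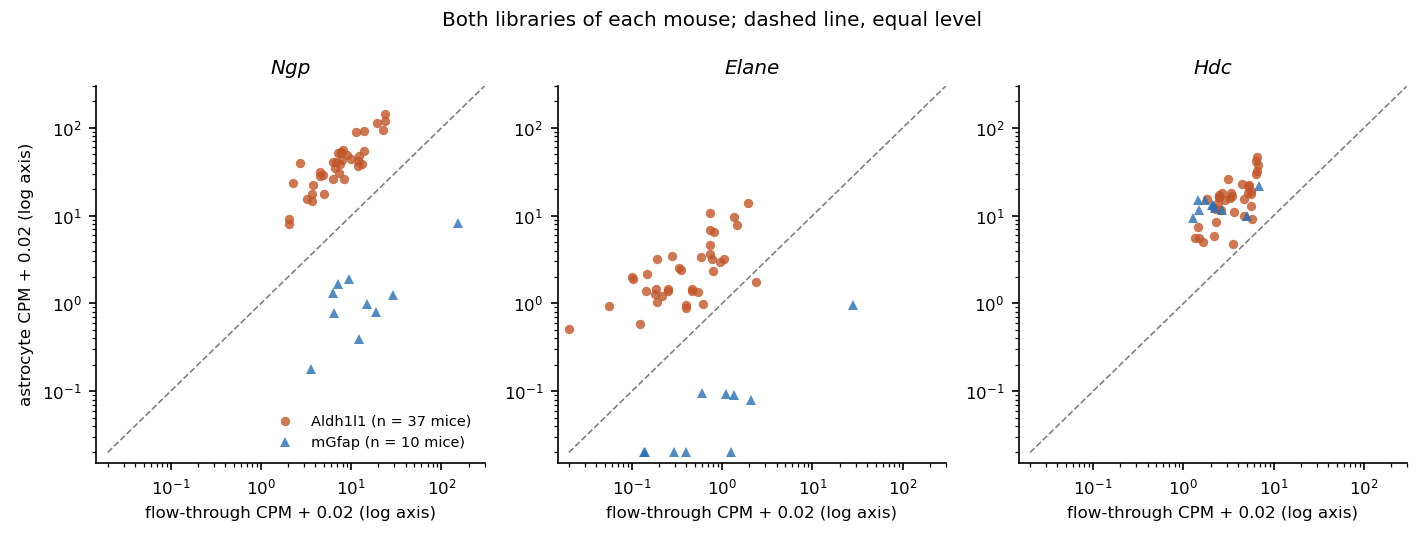
CPM plus 0.02 in the astrocyte library (y, log axis) against the flow-through library (x, log axis) of each mouse for Ngp, Elane and Hdc. Aldh1l1 mice lie above the dashed line of equal level and mGfap mice below it for Ngp and, but for 1 Aldh1l1 mouse, for Elane, and all mice lie above it for Hdc.

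Among the Aldh1l1 astrocyte libraries, the granule genes varied as a group. As distances from the group means over 37 libraries, the 28 pairs among Ctsg, Elane, Mpo, Prtn3, Ngp, Camp, Ltf and Retnlg had r from 0.63 to 0.96, with a median of 0.77. Pairs with Chil3 had r from 0.26 to 0.65 and pairs with Hdc from 0.12 to 0.52. The libraries share their depth and pulldown, and these values are a description. A single mouse could stand high in nearly all of them, as male mouse 4 at 14 d did, with a summed level of 221 CPM in its astrocyte library against 75.6 to 91.6 CPM in the other 3, and 31.5 against 12.7 to 17.7 CPM in flow-through libraries.

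Among 18501 genes, those whose level over the 37 Aldh1l1 astrocyte libraries went most closely with the mean of the 4 azurophil genes, apart from the 10 themselves, included Rhd (r = 0.82), Trim10 (0.79), Ms4a3 (0.75), Fcnb (0.75), Gata1 (0.74), Tspo2 (0.74), Wdr25 (0.73), Slc4a1 (0.73) and Cldn13 (0.73). Ms4a3 and Fcnb are known from granulocyte precursors, and Rhd, Trim10, Gata1, Tspo2 and Slc4a1 from red cell precursors or red cells. In uninjured mice, Slc4a1, the anion exchanger of the red cell membrane, averaged 7.65 CPM in Aldh1l1 astrocyte libraries and 1.49 CPM in flow-through libraries, and 0.350 and 0.956 CPM in mGfap mice. Fcnb averaged 0.910 and 0.0633 CPM in Aldh1l1 mice and 0 and 0.0353 CPM in mGfap mice. Wdr25 was higher in flow-through libraries of both lines, at 6.79 against 13.8 CPM in Aldh1l1 mice. Over the same libraries, r with the mean of the azurophil genes was 0.53 for Hdc and -0.21 for Chil3.

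The label of granulocyte genes was set against marker lists in uninjured mice, by the mean log2 ratio of each list in a mouse. Over the 10 genes it was 2.69 ± 0.11 in Aldh1l1 mice (SD, n = 4) and -2.40 ± 0.41 in mGfap mice (SD, n = 5). Mature neutrophil markers were at 0.61 and -1.41, granulocyte progenitor markers at 0.70 and -1.19 and other granule genes at 0.46 and -2.65. Of the neutrophil markers, Msrb1, S100a9 and S100a8 were the most abundant. S100a9, a calcium-binding alarmin of neutrophils, averaged 75.1 and 11.2 CPM in Aldh1l1 mice and 2.02 and 11.4 CPM in mGfap mice (astrocyte library first), and S100a8, its partner, 52.9 and 6.91 CPM in Aldh1l1 mice and 0.832 and 6.92 CPM in mGfap mice. Msrb1, which many cells express, averaged 62.9 and 65.4 CPM in Aldh1l1 mice and 69.1 and 53.0 CPM in mGfap mice. In uninjured mGfap astrocyte libraries, the progenitor markers Ms4a3, Fcnb and Cebpe were at 0. The most abundant genes of that list were not at 0 there and differed from one another. Mgst1, a glutathione transferase of many cells, was at 218 CPM and as far enriched as in Aldh1l1 mice (log2 ratios 4.60 ± 0.17 and 4.51 ± 0.17). Serpinb1a, at 15.1 CPM, was lower in astrocyte than in flow-through libraries of both lines (-1.46 ± 0.23 in mGfap and -1.99 ± 0.57 in Aldh1l1 mice). Srgn, at 1.70 CPM, had log2 ratios of -2.88 ± 0.42 in mGfap and -0.28 ± 1.34 in Aldh1l1 mice.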

How the data were processed

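RNA from astrocyte pulldowns and their flow-through was read by poly-A RNA-seq in 117 libraries, 70 of astrocytes and 47 of flow-through. The deposited values are raw counts per Entrez gene, made by the authors with featureCounts from HISAT2 alignments (mm10) of reads trimmed by Trimmomatic. The counting used default settings, under which featureCounts does not read the strand. Of 27179 genes, 25275 were given symbols from RefSeq, and 18 files with another row order were joined by identifier. These were the 42 d libraries, the 2 d libraries but for flow-through mouse 2, and the flow-through of P63 mouse 5. Median reads in astrocyte libraries were 76089196 at 2 d and 76528333.5 at 42 d, against 107425481 in uninjured Aldh1l1 mice. At 2 and 42 d, row order and depth thus go with time, and their part was not tested.

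Groups and mouse numbers came from the labels. The members and marker lists were chosen with earlier results of these data known. All members were named, with each call, up to 3 genes a list by mean CPM and the 10 genes most like the azurophil genes, of which 1 is not reported here. Genes were tested in R 4.3.3 with edgeR 4.0.16 (TMM factors 0.796 to 1.25, filterByExpr, quasi-likelihood test, Benjamini-Hochberg, FDR <0.01), after tests on simulated data. DESeq2 1.42.0, other scalings, no filter, FDR under 0.05 and leaving out each mouse were alternatives.

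The mouse number was taken to pair the astrocyte and flow-through libraries of the same animal. Distances from the group means correlated at r of -0.04 to 0.70 (median 0.23), over 0.1 in 36 of 47 mice, and 40 of 47 matched their own number best. Those that did not were 2 d mice 2, 3 and 5 (r of -0.033, -0.017 and -0.040) and injured mGfap mouse 5 (0.225). At 28 d, they were mice 1, 2 and 4 (0.016, -0.009 and 0.034). Ratios and correlations by mouse are therefore less sure at 2 and 28 d. Each injured or aged group held other mice than its control group, and p-values measure the spread between mice.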

Additional observations from a re-analysis of the deposited data

Results flagged for a closer look

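In 22 of 252 sets of a gene and a group of 4 or 5 mice, 1 mouse stood farther from the others than Dixon's 95% limit allows, where chance gives about 1 in 20. Values are CPM, and those of the other mice of the group follow.

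Male Aldh1l1 mouse 4 at 14 d was high in its astrocyte library for Elane (6.89, others 1.26 to 1.43), Mpo (13.6, others 3.11 to 3.53), Prtn3 (6.05, others 1.69 to 1.86) and Camp (32.8, others 9.73 to 11.3). For Hdc it was male mouse 1 of that group that stood apart (15.5, others 11.5 to 12.0).

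The injured mGfap mouse 1 was high in its flow-through library for Ctsg (6.75, others 0.167 to 0.426), Elane (28.1, others 1.08 to 2.06) and Camp (133, others 4.98 to 12.6), and in its astrocyte library for Mpo (2.04, others 0.0356 to 0.140). In the same group, mouse 4 was alone in having reads of Ctsg in the astrocyte library (0.299, others 0).

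Elsewhere in the Aldh1l1 line, Camp was high in the flow-through of mouse 2 at 2 d (53.0, others 3.502 to 7.16), Mpo was low in the astrocyte library of mouse 3 at 28 d (1.75, others 5.54 to 5.93), and Ctsg was high in the flow-through of male mouse 1 at 5 d (0.186, others 0.111 to 0.118).

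The remaining 9 sets were uninjured mGfap astrocyte libraries with few or no reads of the gene. Mice with reads where the others had 0 were P0 mouse 1 for Mpo (0.432) and Ltf (0.522), P21 mouse 3 for Elane (0.0461), P35 mouse 3 for Ctsg (0.0825) and P63 mouse 4 for Elane (0.0744). At P63, mouse 3 was at 0 for Ltf (others 0.217 to 0.459) and mouse 1 at 0 for Retnlg (others 0.118 to 0.205). Prtn3 was low in P14 mouse 4 (0.160, others 0.373 to 0.497), and Camp in P21 mouse 3 (0.0230, others 0.279 to 0.365).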

How the results depend on the processing

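Of 593 alternative values for the counts and medians, 572 stayed near the value reported. For counts this meant equal to it or within 1.5 times it, and for median line differences within the SD of ratios between mGfap mice. A count cannot change direction, and no median did. Of 705 for single genes, 653 kept their call and 52 lost it. In Aldh1l1 astrocyte libraries after SCI, the 2 lower values became 8 at FDR under 0.05 and 0 with library totals, without the low-count filter or with the groups of each comparison alone, and 0 to 6 when a mouse was left out (0 without uninjured mouse 1, 6 without 5 d mouse 4). The 8 higher values in flow-through libraries became 4 to 9 (4, 4 and 5 without uninjured mouse 2, 3 and 4), and the 0 lower values 0 to 1 (1 without 5 d mouse 4). In mGfap mice at 14 d, the 0 higher genes in astrocyte libraries became 3 at FDR under 0.05, 1 with DESeq2 and 0 to 1 when a mouse was left out (1 without 14 d mouse 3), and the 9 higher in flow-through libraries became 2 with the labelled sex as a covariate. The cause was not tested. With the mouse as a replicate block, enriched values summed over the 9 Aldh1l1 groups went from 69 to 77, and depleted values over both mGfap groups from 12 to 15. No block was fitted to the time courses, whose groups are different mice. The median line difference ran from -6.14 to -5.02 in uninjured mice and from -7.95 to -7.24 at 14 d over the alternatives.

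In mGfap astrocyte libraries the members were near the level of single reads, which limits folds and ratios there. The lines differ in Cre and in tamoxifen. Uninjured mGfap mice, at P63, were also younger than the Aldh1l1 mice by the ages the paper gives. These differences cannot be told apart. All mice compared at 14 d were female, and with P63 mice labelled female alone the median line difference was -5.02.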

Other observations

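Genes of red cells and eosinophils were also measured in the same libraries. In uninjured mice, 11 erythroid markers had a mean log2 ratio of astrocyte over flow-through of 2.20 ± 0.51 in Aldh1l1 mice (SD, n = 4) and -1.94 ± 0.61 in mGfap mice (SD, n = 5), and all 11 had a mean above 0 in Aldh1l1 mice. Hba-a1, an alpha globin, averaged 32.9 CPM in Aldh1l1 astrocyte libraries and 3.72 CPM in flow-through libraries, and 0.708 and 2.34 CPM in mGfap mice. Hba-a2, a near-identical copy, averaged 24.3 and 6.79 CPM in Aldh1l1 mice and 0.866 and 5.76 CPM in mGfap mice, and reads that fit both copies may not have been counted. Car2, which many cells express, was higher in astrocyte libraries of both lines (0.46 ± 0.07 and 0.78 ± 0.07 on the log2 scale).

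Eosinophil genes were split. Epx, eosinophil peroxidase, was higher in astrocyte libraries of both lines, as Hdc was, with 7.54 and 0.356 CPM in Aldh1l1 mice (log2 ratio 4.38 ± 0.54) and 3.67 and 0.377 CPM in mGfap mice (3.16 ± 0.49). Prg2, an eosinophil granule protein, averaged 3.71 and 0.794 CPM in Aldh1l1 mice and 0.232 and 0.905 CPM in mGfap mice. Lcn2, a protein of specific granules that reactive astrocytes also make, averaged 14.6 and 3.86 CPM in Aldh1l1 mice and 0.877 and 6.39 CPM in mGfap mice. Lyz2 and Cyba, the more abundant genes of the list of other granule genes, were not enriched in Aldh1l1 astrocyte libraries. Lyz2 averaged 48.6 and 66.3 CPM in Aldh1l1 mice and 6.24 and 41.0 CPM in mGfap mice, and Cyba 15.6 and 15.7 CPM and 8.72 and 10.8 CPM. Of the 19 genes on that list, 10 had a mean log2 ratio above 0 in uninjured Aldh1l1 mice and 9 below 0.

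By list, mean log2 ratios in uninjured Aldh1l1 and mGfap mice were 1.24 and -0.91 for eosinophil, 0.09 and -0.93 for mast cell and basophil, 0.08 and -1.36 for B cell precursor, -0.21 and -2.28 for megakaryocyte and platelet, -0.89 and -1.47 for monocyte and macrophage, -2.33 and -2.61 for microglia, -0.19 and -1.34 for bone and marrow stroma, 0.31 and -0.28 for proliferation and 4.88 and 4.29 for astrocyte markers. Of 12 mast cell and basophil markers tested in Aldh1l1 astrocyte libraries, 6 were higher at 14 d and 7 at each of 28, 42 and 70 d, where 24.5%, 22.8%, 23.3% and 23.9% of all genes were, with median log2 fold changes of 2.25, 3.79, 4.62 and 4.08 in that order.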
